A study of Mus musculus with 16 samples.

Results

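The genes described here are 37 interferon response genes, taken by symbol from the 53465 genes of a count table for group 2 innate lymphoid cells (ILC2) of the mouse duodenum. They were sorted by role into 6 type I-like effectors (Isg15, Ifit1, Ifit2, Ifit3, Oas1a and Oasl2), 9 gamma-like GTPases (Gbp2 to Gbp7, Irgm1, Irgm2 and Igtp), 2 other immunity-related GTPases (Ifi47 and Iigp1), 4 transcription factors, 4 membrane restriction factors and 12 other interferon-induced genes. The rule that picks them is a list of names and uses no measured value, but the list was drawn up with earlier results of these data known. The RNA came from 16 libraries, 4 for each of 4 genotypes, from C57BL/6 mice of 6 to 10 weeks that were untreated and specific-pathogen-free. The first 5 cm of the small intestine was digested, and the cells were sorted with a gate that is not given in the sources used here. All 4 genotypes carried the smart13 reporter allele at Il13 on both chromosomes. WT had no other modification, and Alox5 KO lacked 5-lipoxygenase, the first enzyme of leukotriene synthesis. Il25 KO and St2 KO lacked the tuft cell cytokine IL-25 and the IL-33 receptor ST2, and both also carried the Yarg reporter on both copies of Arg1, which WT and Alox5 KO did not. Differences of either knockout from WT therefore cannot be told apart from those of the reporter allele.

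Interferons reach lymphocytes as type I interferons, through the receptor of Ifnar1 and Ifnar2, or as interferon gamma, through Ifngr1 and Ifngr2. Type I signals bring STAT2 and IRF9 into a complex that binds the interferon-stimulated response element (ISRE), whereas interferon gamma acts through the gamma-activated site (GAS) and switches on IRF1, which itself reads ISRE-like sequences. Antiviral effectors such as ISG15 and the IFIT and OAS proteins are typical of the first arm, and the guanylate-binding proteins (GBP) and immunity-related GTPases (IRG), which attack the vacuoles of intracellular pathogens, are typical of the second. Most members answer to both arms, so the names "type I-like" and "gamma-like" are labels of the 2 gene groups and not of a signal.

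Both elements were written in the promoters of the members. Promoter windows of 300 bases, 250 before and 50 after the start in RefSeq on GRCm38.p6, were matched for 28 of the 37 members. Windows were not used for Gbp4, Gbp6, Iigp1, Mx1, Rtp4, Usp18, Zbp1, Parp14 and Ifi27l2a. Both strands were searched for GAAANNGAAA (ISRE) and TTCNNNGAA (GAS), and the 2 motifs can overlap by a few bases. An ISRE was found in 18 of the 28 members (64.3%), against 3.99% of 27025 genes with such a window, and a GAS in 10 (35.7%), against 9.55%. All 7 gamma-like GTPases with a window had an ISRE and 4 of them also a GAS, while 4 of the 6 type I-like effectors had an ISRE and 2 a GAS. A match is a description of the letters and shows no bound protein.

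The stretches below hold the motifs of 7 members, written from 5′ to 3′ in the direction of the gene with the motif in capitals. Isg15, Igtp and Irf1 are shown because they passed a genotype test. Of the other members that passed one, Ifi44 had neither motif in its window and Ifi27l2a had no window. Ifit1, Irgm2, Gbp7 and Bst2, picked by hand, show other arrangements of the 2 motifs.
Isg15, minus strand, chr4:156200860-156200911: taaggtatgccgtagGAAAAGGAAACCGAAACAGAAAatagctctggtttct
Ifit1, plus strand, chr19:34640770-34640828: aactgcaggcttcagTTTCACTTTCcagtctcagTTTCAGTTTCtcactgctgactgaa
Igtp, plus strand, chr11:58199496-58199546: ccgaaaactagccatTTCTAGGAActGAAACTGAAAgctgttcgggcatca
Irgm2, plus strand, chr11:58214887-58214937: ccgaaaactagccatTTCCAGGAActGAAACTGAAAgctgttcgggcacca
Gbp7, plus strand, chr3:142530215-142530307: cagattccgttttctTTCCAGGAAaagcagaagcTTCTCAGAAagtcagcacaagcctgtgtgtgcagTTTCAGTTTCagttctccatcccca
Irf1, plus strand, chr11:53769909-53769947: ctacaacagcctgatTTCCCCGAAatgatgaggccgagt
Bst2, minus strand, chr8:71537572-71537623: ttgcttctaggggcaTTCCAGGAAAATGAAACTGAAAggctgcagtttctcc
Isg15 and Ifit1, the type I-like effectors, had repeated ISREs and no GAS in the window, Irf1 had a GAS and no ISRE, and Igtp, Irgm2, Gbp7 and Bst2 had both. The stretches of the neighbouring genes Igtp and Irgm2 were identical at 49 of 51 bases. The differences were T19C and T49C, counted from 1 at the 5′ end with the base of Igtp first, and the first of them lies among the unspecified middle bases of the GAS. None of these 7 stretches lies in an exon of the GENCODE M21 annotation.

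**Figure D1:**
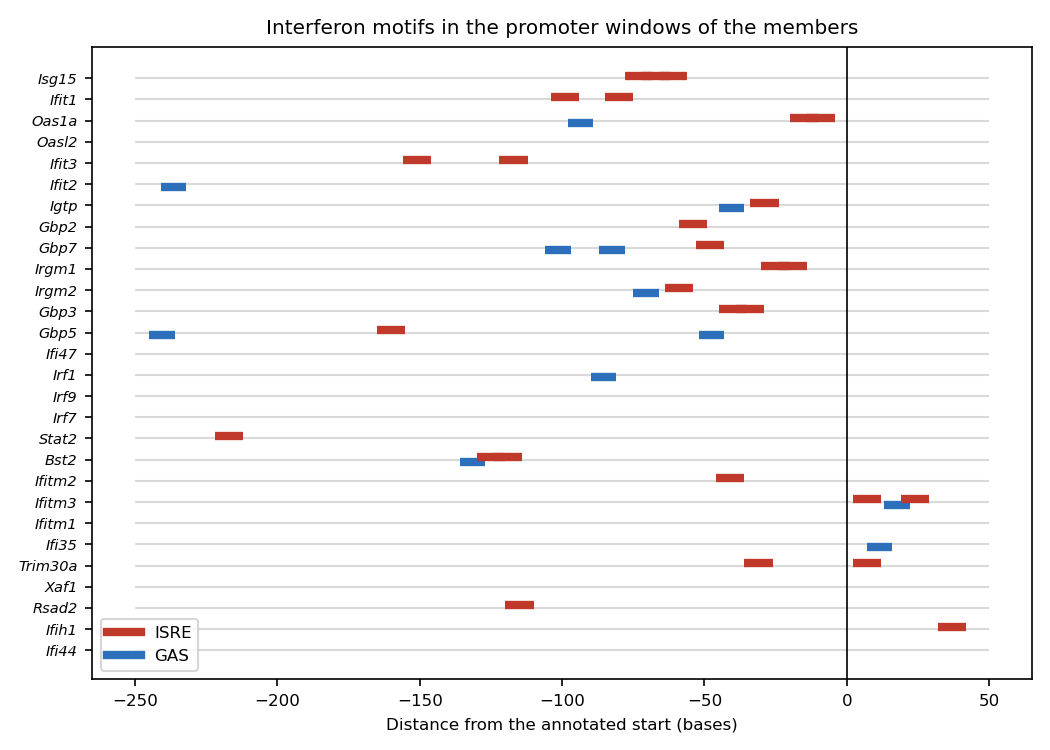
Positions of ISRE (red) and GAS (blue) matches in the promoter windows of the 28 members that have one, by distance in bases from the annotated start, with genes in order of role. All 7 gamma-like GTPases, Igtp to Gbp5, have at least 1 ISRE before the start, and 7 of the 28 members have neither motif.

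Total gene counts were 2086864 to 3216937 per library, and 35 of the 37 members had enough counts to be tested. The libraries fall into 3 sets by the letters of their sample codes, whose meaning is not given: replicates 1 and 2 of each genotype are TS, while replicates 3 and 4 are TT in WT and in Alox5 KO but TY in the Il25 and St2 knockouts. Xist counts were 982 to 1682 in the TY libraries and at most 7 in the other 12, and counts of the Y-linked Ddx3y were at most 2 in TY and at least 709 elsewhere, which is the pattern of females in TY and males elsewhere. The set was a term in the model, so the comparisons of Il25 KO and St2 KO with WT rest mainly on the TS libraries, the one set these genotypes share. Of the targeted genes, Alox5 had 12 to 31 counts per library in Alox5 KO and 196 to 376 in WT, and Il25 had 0 counts everywhere, which checks nothing. Il1rl1, which encodes ST2, had 365 to 585 counts in the libraries labelled St2 KO and 448 to 636 in WT. Counts over a whole gene do not show a partial deletion, so the label St2 KO, used below as given, was not checked by them. The summed level of 13 ILC2 markers was 6014 to 7758 CPM (counts scaled to a common library total of 1000000) in every library. Summed B and plasma cell markers were lowest in Alox5 KO 1, Alox5 KO 2 and St2 KO 1 (321.7, 438.6 and 484.3 CPM). They were at least 1155 in the others, with Pax5 at 0 throughout. Every St2 KO library (484.3 to 1296 CPM) also lay below every WT library (1467 to 1803) and every Il25 KO library (1307 to 1872). The part of this list in the differences of St2 KO from WT and from Il25 KO was not tested. In bulk RNA, fewer cells of a type and less RNA per cell cannot be told apart. The labels do not say that each library is a separate mouse, so the p-values may reflect technical spread alone.

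The ILC2 libraries of these untreated mice held transcripts of most members, at levels that spanned the range of the tested genes. Which of the sorted cells carried them was not tested. Divided by exonic length, the mean level was highest for Isg15, a ubiquitin-like protein that is attached to other proteins, at 121.6 CPM per kilobase. It was followed by Igtp at 118.7, Bst2 at 105.0, Ifi47 at 104.0, Gbp2 at 100.4, Irf1 at 97.3, Ifi35 at 93.3 and Gbp7 at 68.3 CPM per kilobase. These 8 members stood at or above the 90th percentile of the tested genes, 10 members stood under the 40th, and the median member stood at percentile 59.1. The lowest were Ifi44 at 0.554, Mx1 at 0.387, Ifit3 at 0.288 and Ifit2 at 0.282 CPM per kilobase. The summed level of the 37 members was 3817 ± 260 CPM in WT, 3818 ± 342 in Alox5 KO, 3636 ± 245 in Il25 KO and 3457 ± 137 in St2 KO (mean ± SD, n = 4). St2 KO, at 3259 to 3554 CPM, lay below WT, at 3635 to 4196, in every library, and no test was made of this sum.

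**Figure D2:**
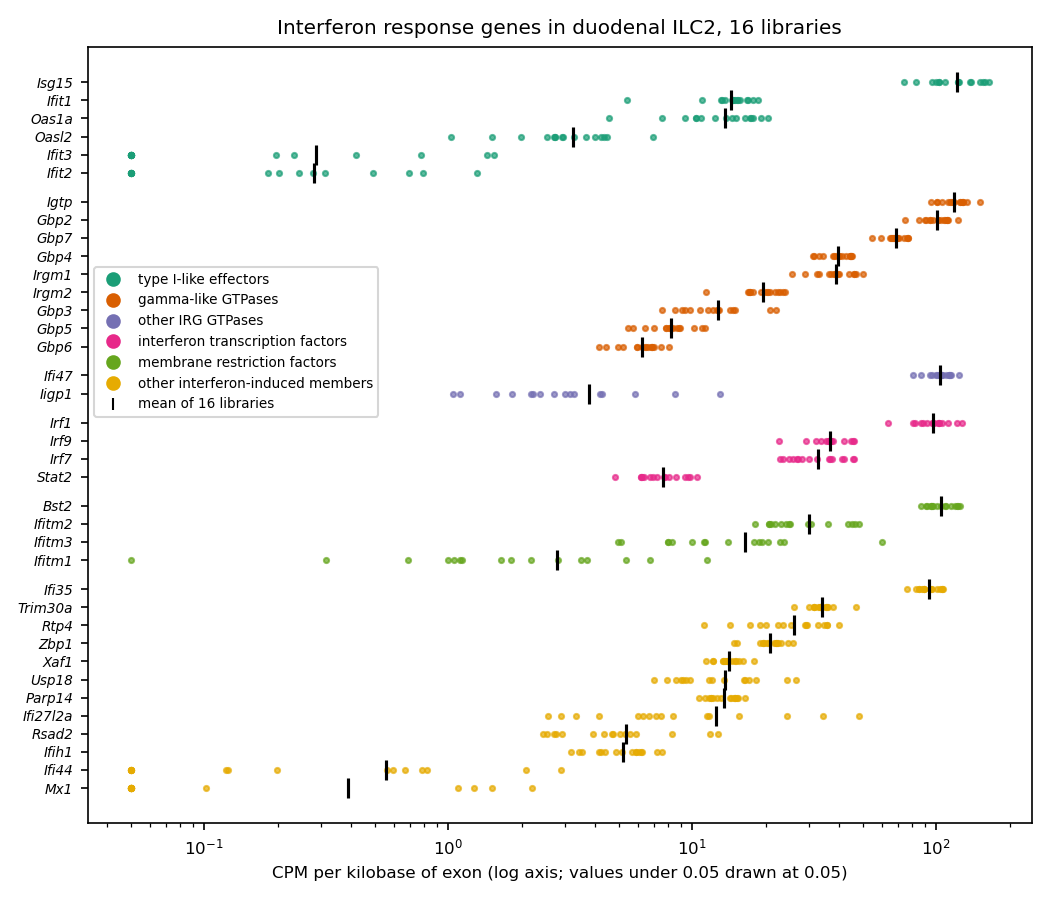
CPM per kilobase of exon (log axis) of the 37 members in each of the 16 libraries (points) with the mean (black bar), grouped by role. Isg15, Igtp, Bst2, Ifi47 and Gbp2 lie above 100 on average, and Ifit2, Ifit3, Ifi44 and Mx1 lie under 1 with libraries at 0.

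Among the type I-like effectors, Isg15 was higher in Il25 KO than in St2 KO. Its CPM were 114.3, 82.5, 92.6 and 75.6 in WT, 77.6, 105.1, 94.0 and 119.8 in Alox5 KO, 104.5, 118.1, 124.6 and 93.0 in Il25 KO, and 72.8, 62.8, 77.8 and 55.7 in St2 KO, for replicates 1 to 4. All 4 Il25 KO libraries lay above all 4 St2 KO libraries, and the WT and Alox5 KO ranges overlapped with both. Il25 KO exceeded St2 KO by 0.75 ± 0.174 (SE) on the log2 scale, with an adjusted p of 0.0368 by edgeR's quasi-likelihood test, Benjamini-Hochberg over all 11742 genes. It was 0.77 within TS and 0.74 within TY. Across the other settings its adjusted p ran from 0.00618 to 0.328 and the call held in 6 of 11. It also held in 11 of the 16 fits that each left out a library, and was lost without Il25 KO 2, Il25 KO 3, St2 KO 1, St2 KO 2 or St2 KO 4. Against WT, Isg15 had log2 fold changes of 0.31 ± 0.208 in Il25 KO and -0.44 ± 0.216 in St2 KO (adjusted p = 0.71 and 0.675).

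The other type I-like effectors passed no test. Ifit1, which binds the ends of foreign RNA, had 39.8 ± 3.95 CPM in WT, 40.4 ± 5.11 in Alox5 KO, 36.0 ± 15.1 in Il25 KO and 37.9 ± 6.71 in St2 KO. Its lowest and highest libraries, at 14.4 and 49.6 CPM, were both Il25 KO, so that genotype spanned all the others. Oas1a, whose product makes the oligoadenylates that activate RNase L, had 29.2 ± 6.87 CPM in WT and 21.1 ± 7.05 in St2 KO (log2 fold change -0.57 ± 0.41, adjusted p = 0.813). Oasl2, of the same family, had 15.99 ± 9.26 CPM in WT and 29.4 ± 10.1 in Il25 KO (0.83 ± 0.447, adjusted p = 0.603), with overlapping ranges. Ifit2 and Ifit3, the partners of Ifit1, had 47 and 22 counts over all 16 libraries and were not tested. Ifit2 had 8, 24, 2 and 13 counts in WT and in the Alox5, Il25 and St2 knockouts, and Ifit3 had 8, 0, 9 and 5.

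Among the gamma-like GTPases, Igtp was lower in St2 KO than in WT. Igtp encodes an IRG protein, also known as Irgm3, that regulates the loading of other IRG proteins onto vacuoles. Its CPM were 257.6, 305.0, 253.7 and 259.9 in WT, 269.9, 254.3, 259.8 and 236.7 in Alox5 KO, 193.1, 202.9, 230.5 and 240.3 in Il25 KO, and 204.7, 212.9, 225.4 and 232.9 in St2 KO. Every Il25 KO and St2 KO library lay below every WT library, and the Alox5 KO range overlapped with WT and with Il25 KO. Igtp fell by 0.46 ± 0.0949 on the log2 scale in St2 KO (adjusted p = 0.0447). The difference of Il25 KO from WT was -0.43 ± 0.096 and missed the threshold (adjusted p = 0.0636). The 2 knockouts differed from each other by 0.03 ± 0.0788 (adjusted p = 0.946).

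The St2 KO call for Igtp was close to the threshold. Its log2 fold change ran from -0.48 to -0.31 over 11 other settings with an adjusted p of 0.00179 to 0.433, and the call was lost in 7 of them. It was also lost in 14 of the 16 fits that left out 1 library, that is in all except those without Il25 KO 2 or Alox5 KO 4 (adjusted p of 0.0456 to 0.401). The value nearest 0, -0.31, came without the set term. Igtp and its neighbour Irgm2 share exonic bases on the same strand, so reads of the 2 genes may be split uncertainly. In all, 15 members share exonic bases with another gene of the annotation, among them Irf1 (with Gm17334), and the same limit holds for them.

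Of the other 8 gamma-like GTPases, 7 also had lower fitted levels in St2 KO, and the same number in Il25 KO, without passing. Gbp2 had 262.7, 280.0, 228.8 and 237.0 CPM in WT, 187.7, 214.2, 271.3 and 278.4 in Il25 KO, and 225.9, 236.9, 244.7 and 256.3 in St2 KO. Its TS libraries (replicates 1 and 2) were lower in both knockouts than in WT, whereas its TY libraries of both knockouts were all above the TT libraries of WT. Its fitted differences from WT were -0.29 ± 0.106 in Il25 KO and -0.31 ± 0.103 in St2 KO (adjusted p = 0.356 and 0.425). Gbp4 had 315.8 ± 25.4 CPM in WT and 251.8 ± 24.0 in Il25 KO (-0.32 ± 0.116, adjusted p = 0.362). Gbp3 had 46.6 ± 15.96 CPM in WT and 32.2 ± 7.51 in St2 KO (-0.73 ± 0.286, adjusted p = 0.556), with ranges that overlapped. Gbp7 stayed between 307.8 and 429.5 CPM in all 16 libraries, with differences of -0.19 ± 0.098 in Il25 KO and -0.23 ± 0.0973 in St2 KO. Gbp5 and Gbp6 had 54.9 ± 15.2 and 39.9 ± 1.68 CPM in WT, 55.2 ± 1.69 and 30.4 ± 7.28 in Il25 KO, and 46.4 ± 8.72 and 38.9 ± 3.95 in St2 KO. Irgm2 was the exception in sign, at 0.14 ± 0.213 in Il25 KO and 0.05 ± 0.21 in St2 KO. Irgm1, which regulates other IRG proteins and autophagy, had 229.1 ± 25.8 CPM in WT and 228.2 ± 3.64 in St2 KO. Gbp4 shares exonic bases with Gbp8 and Gbp9, and reads of such near copies may be split uncertainly.

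The 2 other IRG genes had different spreads. Ifi47 had 247.2, 279.6, 257.8 and 284.0 CPM in WT, 307.0, 278.2, 254.6 and 262.1 in Alox5 KO, 270.2, 199.6, 237.5 and 280.6 in Il25 KO, and 214.5, 232.5, 248.4 and 260.8 in St2 KO. St2 KO reached the lower part of the WT range and the ranges overlapped (-0.29 ± 0.114, adjusted p = 0.546). Iigp1, an effector IRG that coats pathogen vacuoles, had 12.8, 49.7, 33.9 and 24.5 CPM in WT, 75.7, 13.9, 19.0 and 12.9 in Alox5 KO, 6.12, 9.17, 15.9 and 18.3 in Il25 KO, and 17.5, 6.53, 24.8 and 10.7 in St2 KO. Alox5 KO 1 held the highest value and Il25 KO 1 the lowest, and WT overlapped with each genotype. Its fitted differences from WT were large, -2.06 ± 0.692 in Il25 KO and -1.84 ± 0.66 in St2 KO, but did not pass (adjusted p = 0.305 and 0.471).

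Irf1 was the transcription factor with the clearest genotype difference. It encodes a factor that interferon gamma induces and that activates GBP genes and other members. Its CPM were 388.6, 403.4, 419.2 and 383.2 in WT, 409.7, 386.1, 366.1 and 345.0 in Alox5 KO, 408.2, 483.5, 507.1 and 444.4 in Il25 KO, and 318.3, 350.6, 326.5 and 253.2 in St2 KO. Every St2 KO library lay below every WT and every Il25 KO library, while Il25 KO overlapped with WT at its lowest library. Irf1 was higher in Il25 KO than in St2 KO by 0.61 ± 0.0986 on the log2 scale (adjusted p = 0.0019). The difference was 0.47 ± 0.136 within TS and 0.75 ± 0.139 within TY, and the change between sets was 0.29 ± 0.195 (adjusted p = 0.9999). The call held in 10 of 11 other settings and in all 16 fits that left out a library, and was lost with the TS libraries alone (0.47, adjusted p = 0.27, in a range over settings of 6.91e-07 to 0.27). Against WT the differences were -0.37 ± 0.121 in St2 KO and 0.23 ± 0.121 in Il25 KO, neither of which passed (adjusted p = 0.392 and 0.594).

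Immediate early genes, which cells switch on within minutes of stimulation or handling, were read beside Irf1. The summed level of 23 of them, all detected and none of them a member, was 4627 to 5203 CPM in St2 KO and 6490 to 8772 CPM in the other genotypes. St2 KO was thus lowest in both measures, and the part of this list in the Irf1 difference was not tested. The other 3 factors passed no test. Irf9 and Stat2, the DNA-binding partner and the STAT of the type I complex, had 223.2 ± 25.1 and 48.6 ± 6.85 CPM in St2 KO, 193.1 ± 28.5 and 50.5 ± 10.9 in Il25 KO, and 191.6 ± 12.6 and 43.7 ± 12.1 in WT. Irf7, which amplifies type I interferon production, had 126.8 ± 27.3 CPM in WT, 101.8 ± 24.4 in Alox5 KO, 141.4 ± 37.4 in Il25 KO and 127.3 ± 23.9 in St2 KO. In Il25 KO against St2 KO their differences were -0.17 ± 0.126 for Irf9, 0.09 ± 0.194 for Stat2 and 0.21 ± 0.189 for Irf7, with adjusted p-values of 0.685, 0.913 and 0.761.

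The 4 membrane restriction factors had no call, and all 4 had a higher fitted level in Il25 KO than in St2 KO. Over all tested genes the median log2 fold change in that comparison was -0.011. Bst2, the tetherin that holds budding virus at the cell surface, had 78.0, 110.7, 98.2 and 103.4 CPM in WT, 109.9, 82.7, 94.8 and 112.6 in Alox5 KO, 86.8, 98.7, 107.9 and 87.7 in Il25 KO, and 82.0, 86.1, 86.2 and 91.2 in St2 KO. All genotypes overlapped for Bst2. Ifitm1, one of the IFITM proteins that block virus entry at membranes, had 1.16, 3.09, 0.753 and 1.23 CPM in WT, 2.39, 0, 1.98 and 3.83 in Alox5 KO, 1.80, 5.87, 7.33 and 12.6 in Il25 KO, and 4.05, 1.24, 1.096 and 0.344 in St2 KO. In Il25 KO, 3 of 4 libraries were above all other libraries, and Il25 KO 1 was not. Its counts were low, 74 in Il25 KO and 20 in St2 KO, and its log2 fold change of 2.02 ± 0.666 did not pass (adjusted p = 0.178). The difference was 0.60 ± 0.865 within TS and 3.78 ± 0.944 within TY, so it lay mainly in the TY libraries. The change between sets was 3.18 ± 1.425 and did not pass (adjusted p = 0.9993). Ifitm2 had 25.9 ± 7.26 CPM in Il25 KO and 16.3 ± 4.15 in St2 KO (0.71 ± 0.281, adjusted p = 0.308). Ifitm3 had 16.4 ± 16.4 and 7.88 ± 4.29 CPM, with 1 library, Il25 KO 3, at 40.7.

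Of the 12 other members, Ifi27l2a passed in Il25 KO against St2 KO. It encodes a small interferon-induced membrane protein. Its CPM were 3.09, 3.86, 11.3 and 5.31 in WT, 1.19, 5.41, 2.78 and 1.92 in Alox5 KO, 7.21, 3.30, 15.9 and 22.3 in Il25 KO, and 1.35, 1.55, 2.92 and 3.44 in St2 KO. The ranges of the 2 knockouts met, since Il25 KO 2 lay just under St2 KO 4, and the TY libraries (replicates 3 and 4) were the higher ones within each knockout. The log2 fold change was 2.40 ± 0.458 (adjusted p = 0.00567), with 1.87 ± 0.847 within TS and 2.61 ± 0.537 within TY. The call held in 8 of 10 other settings, with an adjusted p of 0.00545 to 0.607, and was lost with the TS libraries alone or in edgeR's legacy mode. It was lost without St2 KO 4 (adjusted p = 0.0525) and held in the other 15 fits that left out a library. Across sets, TY over TS was 1.71 ± 0.435 and did not pass (adjusted p = 0.12). Summed macrophage and dendritic cell markers (14 of 16 detected, Fcgr1 and Cd209a at 0) were 24.1, 115.9, 128.7 and 33.8 CPM in Il25 KO 1 to 4 and 18.9 to 32.7 in St2 KO. Summed epithelial markers (13 of 13 detected) were 349.9 CPM in Il25 KO 1 and at most 80.9 in every other library. The part of either list in the results for Ifi27l2a, Ifitm1, Ifitm2 and Ifitm3 was not tested.

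Ifi44 stood out in Alox5 KO at low counts. It encodes an interferon-induced cytoplasmic protein. Its CPM were 0, 0.771, 0.753 and 4.09 in WT, 12.7, 5.02, 17.9 and 4.79 in Alox5 KO, 0, 0, 1.22 and 0 in Il25 KO, and 0, 0, 3.65 and 3.44 in St2 KO. All 4 Alox5 KO libraries lay above all 12 others, which together had 37 counts against the 100 of Alox5 KO. The 3 other genotypes had 14, 3 and 20 counts in WT, Il25 KO and St2 KO. The log2 fold change of Alox5 KO over WT was 2.90 ± 0.711 and did not pass (adjusted p = 0.171), and the ratio of their pooled shares was 7.57 (95% counting interval 4.31 to 14.3). The test for a difference among any of the 4 genotypes passed for Ifi44 (adjusted p = 0.0159). That call was lost without Alox5 KO 1, Alox5 KO 3 or WT 3, and held in 13 of the 16 fits that left out a library. It held in 7 of 10 other settings, with an adjusted p of 7.84e-05 to 0.519. It was lost with the TS libraries alone and in edgeR's legacy mode. It was also lost when the 3 libraries with low plasma cell markers were removed (adjusted p = 0.519). Those 3 libraries include both Alox5 KO libraries of TS. Counting intervals cover counting error only.

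Mx1, a GTPase that blocks viral replication and is defective in C57BL/6 mice, had 26 counts in WT, 41 in St2 KO and 0 in both Alox5 KO and Il25 KO. Its CPM were 0.386, 0, 4.14 and 5.72 in WT and 0, 8.39, 0 and 4.82 in St2 KO. Libraries of one genotype thus ranged from 0 to several CPM. Set against a floor of 3 counts over the genotype, the pooled WT share was at least 8.18-fold that of Alox5 KO and at least 9.05-fold that of Il25 KO. These ratios leave out the spread between libraries, and the test over libraries did not pass (adjusted p = 0.691 and 0.937). The WT counts were 1 and 0 in the TS libraries and 11 and 14 in the TT libraries. Since TS is the one set that WT and Il25 KO share, that ratio cannot be told apart from a set difference. Usp18, which removes ISG15 from proteins and damps the type I receptor, had 37.9, 68.3, 45.9 and 45.4 CPM in WT and 27.4, 25.7, 19.6 and 26.2 in Il25 KO. All Il25 KO libraries lay below all WT libraries, with a difference of -1.08 ± 0.39 that did not pass (adjusted p = 0.361).

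The remaining 8 members of this group passed no test in the 4 comparisons. Zbp1, a sensor of nucleic acids that starts cell death, had 78.7 ± 9.23 CPM in WT and 62.1 ± 10.4 in St2 KO (-0.40 ± 0.18, adjusted p = 0.633). Rtp4, a chaperone-like protein that restrains the interferon response, had 62.1 ± 15.6 and 44.3 ± 21.1 CPM in the same genotypes (-0.86 ± 0.35, adjusted p = 0.594). Rsad2, the antiviral enzyme viperin, was variable, from 10.6 to 55.5 CPM over the 16 libraries. Ifih1, the sensor of double-stranded RNA known as MDA5, had 36.6 ± 10.3 CPM in WT and 48.5 ± 7.76 in St2 KO (0.43 ± 0.287, adjusted p = 0.792). Ifi35, Trim30a, Parp14 and Xaf1 had 166.5 ± 14.1, 140.2 ± 12.7, 134.2 ± 24.0 and 72.6 ± 9.03 CPM in WT. Their largest fitted difference from WT in any knockout was that of Xaf1 in St2 KO, -0.33 ± 0.173.

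**Figure D3:**
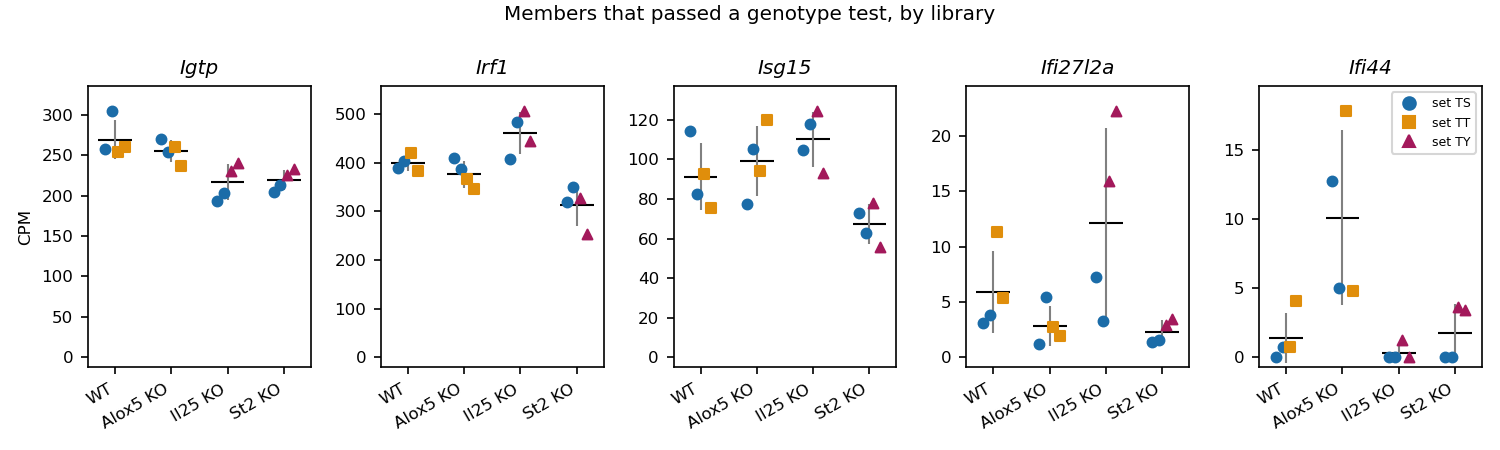
CPM of the 5 members that passed a genotype test, by library (points; shape and colour give the set), with the mean (bar) and SD (grey line) of 4 libraries. Igtp in Il25 KO and St2 KO lies below all WT libraries, Irf1 and Isg15 in St2 KO lie below all Il25 KO libraries, and Ifi44 in Alox5 KO lies above all others.

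Few members passed in any comparison. In Alox5 KO against WT 0 of 35 tested members passed, with 0.102% of all tested genes called, and 2 members had an unadjusted p under 0.05, against 7.17% of all genes. DESeq2 called 0 members there as well. In Il25 KO against WT 0 passed by edgeR (0.417% of all genes called) and 6 had an unadjusted p under 0.05, against 9.3% of all genes, while DESeq2 called 1, Igtp. In St2 KO against WT 1 of 35 passed, Igtp, with 0.298% of all genes called, and 10 members had an unadjusted p under 0.05, against 7.49% of all genes. In Il25 KO against St2 KO 3 passed, Irf1, Isg15 and Ifi27l2a, all higher in Il25 KO, with 1.24% of all genes called, and 7 members had an unadjusted p under 0.05, against 11.3% of all genes. By the test for a difference among any genotypes 4 passed, Irf1, Ifi44, Ifi27l2a and Igtp (adjusted p of 0.0132, 0.0159, 0.0228 and 0.0461), with 1.17% of all genes called. In the same order, these calls held in 8, 7, 7 and 4 of 10 other settings. Of the 16 fits that left out a library, they held in 15, 13, 11 and 2. Members with non-overlapping groups were Ifi44 in Alox5 KO against WT, Usp18 and Igtp in Il25 KO, Irf1 and Igtp in St2 KO, and Irf1 and Isg15 between the 2 knockouts. The groups of 3.84%, 6.78%, 8.46% and 5.95% of all tested genes did not overlap in these comparisons, so these 1, 2, 2 and 2 of 35 members are no more than the share over all genes.

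Most members had fitted levels below WT in St2 KO and Il25 KO, and about as many lay above as below in Alox5 KO. In Alox5 KO 16 of 35 members were lower than in WT, against 47.9% of all tested genes, with a median log2 fold change of 0.007 over members and 0.013 over all genes. In Il25 KO 25 were lower, against 49.7% of all genes, with medians of -0.185 and 0.003. In St2 KO 30 were lower, against 48.2% of all genes, with medians of -0.265 and 0.013. The 3 comparisons share the WT libraries, so their counts are not independent of each other. Between the 2 knockouts 25 of 35 members were higher in Il25 KO. The medians were 0.088 over members and -0.011 over all tested genes, so more of all tested genes were lower than higher. With Mx1 set at its bound, the 3 medians that involve a genotype without its counts did not move. By edgeR 0 members passed between TT and TS, where 0% of all genes were called, or between TY and TS (0.136%), with 3 and 5 at an unadjusted p under 0.05, against 7.14% and 9.44% of all genes. The change between sets of the Alox5 KO difference from WT, and of the Il25 KO difference from St2 KO, also gave 0 members, with 0% of all genes called in each, and 0 and 1 members had an unadjusted p under 0.05, against 4.04% and 4.87% of all genes.

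**Figure D4:**
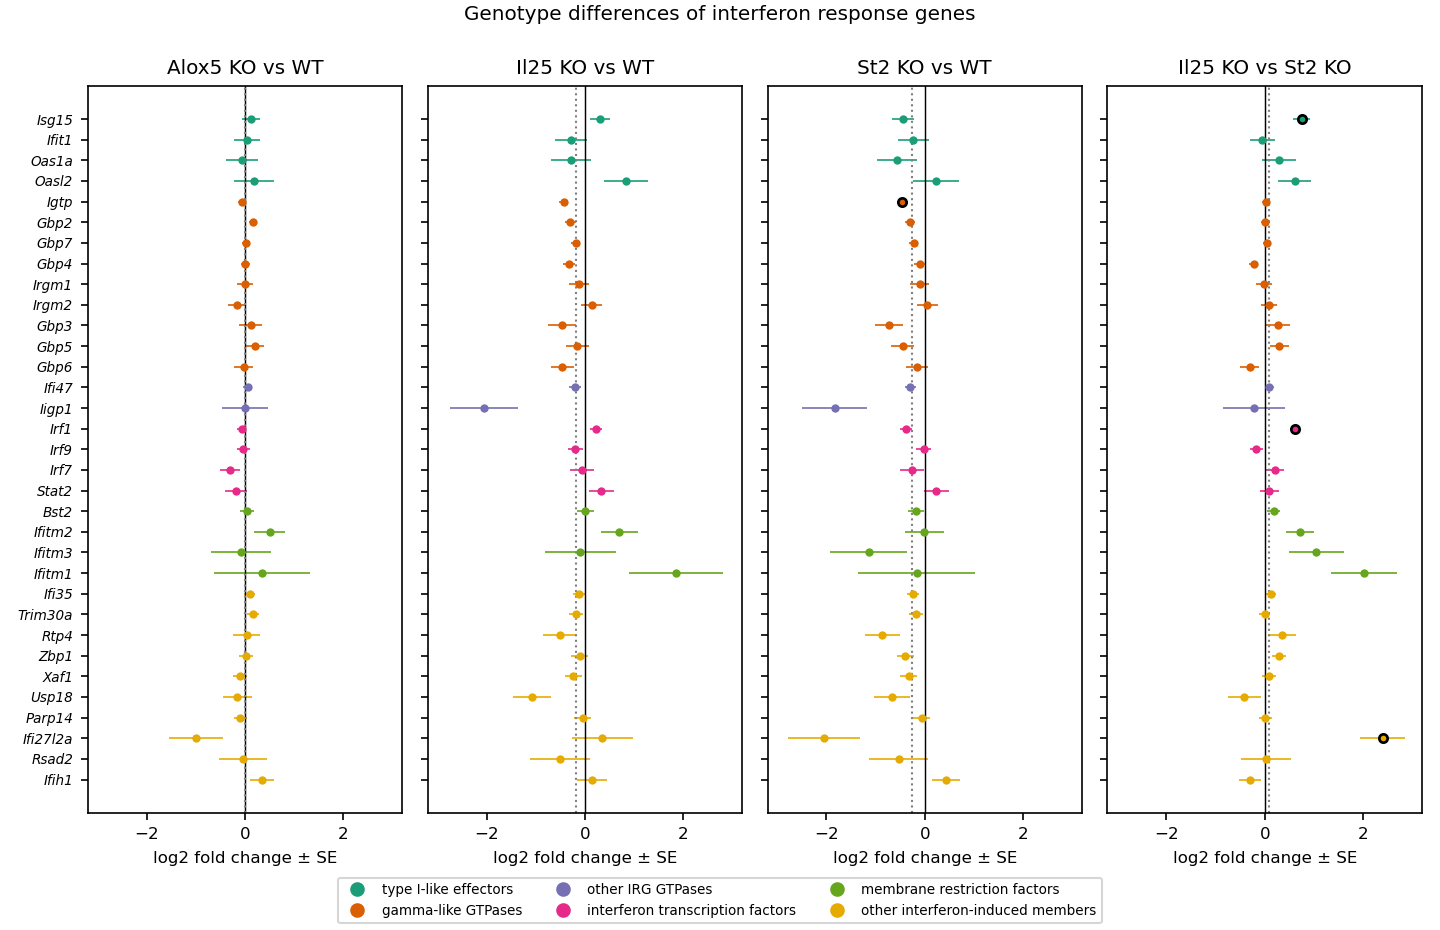
Log2 fold change ± SE of 33 tested members in 4 comparisons, coloured by role, with members that passed outlined in black and the median of all 35 tested members as a dotted line. Mx1 and Ifi44 are left out because some genotypes have few or no counts of them. The dotted line lies to the left of 0 in Il25 KO and St2 KO against WT, at -0.185 and -0.265.

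The fitted medians of the type I-like and gamma-like groups were in different orders over the genotypes, and this difference was not tested. Against WT, the median log2 fold changes of 4 tested type I-like effectors and 9 gamma-like GTPases were 0.083 and 0.007 in Alox5 KO, 0.015 and -0.293 in Il25 KO, and -0.340 and -0.227 in St2 KO. Both medians were thus below 0 in St2 KO, while in Il25 KO that of the gamma-like GTPases was below 0 and that of the type I-like effectors was near 0. There its sign turned with upper-quartile factors (-0.009) and column totals (-0.016). The 4 type I-like effectors in Il25 KO lay on both sides of this median. Oasl2 and Isg15 were at 0.83 and 0.31, and Oas1a and Ifit1 were both at -0.28. Of the gamma-like GTPases 8 of 9 were lower in Il25 KO and 8 of 9 in St2 KO. In Il25 KO against St2 KO the medians were 0.448 for type I-like and 0.026 for gamma-like genes, the latter turning to -0.017 with column totals. The type I-like median rests on few genes, of which Isg15 passed the test.

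Per library, the measure was the mean log2(CPM + 1) of the type I-like effectors minus that of the gamma-like GTPases. Its size reflects gene length as well as level and is read here only across genotypes. It was -1.91 ± 0.288 in WT, -1.89 ± 0.178 in Alox5 KO, -1.55 ± 0.287 in Il25 KO and -1.91 ± 0.127 in St2 KO (mean ± SD, n = 4). Il25 KO was highest in mean, and its range, -1.92 to -1.27, overlapped with that of every other genotype.

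The gamma-like mean depended on the set of the libraries. In TS it was 7.20 in WT, 7.12 in Alox5 KO, 6.84 in Il25 KO and 6.91 in St2 KO. WT in TT was at 6.96, Il25 KO in TY at 6.97 and St2 KO in TY at 6.96, so the 2 knockouts were below WT in TS and level with it outside TS. Without the set term the gamma-like medians were -0.102 in Il25 KO and -0.074 in St2 KO. Sets TT and TY share no genotype, so a set difference and a genotype difference cannot be told apart between them.

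**Figure D5:**
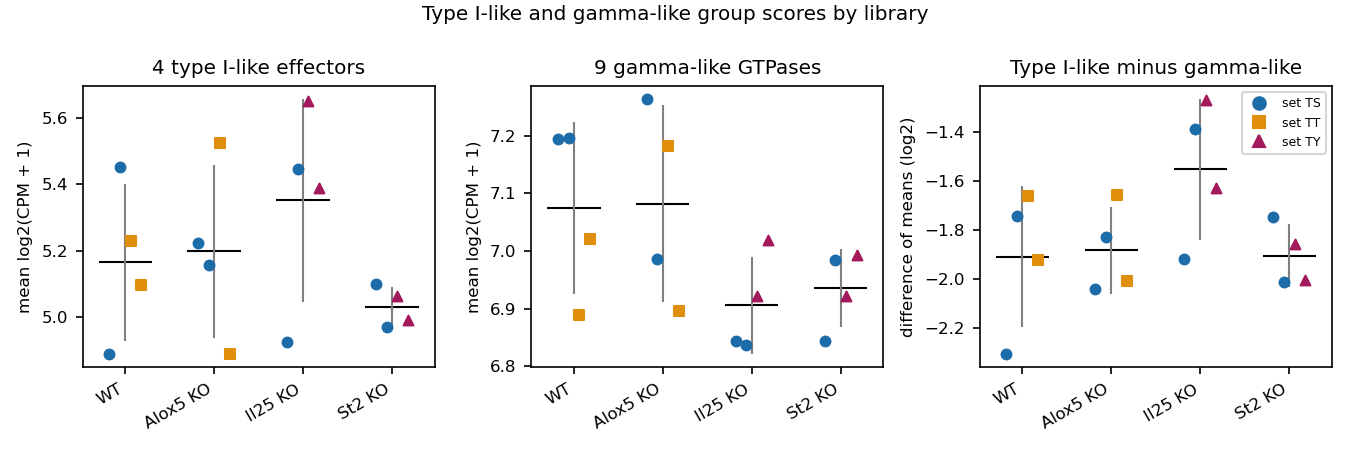
Mean log2(CPM + 1) of 4 type I-like effectors (left) and 9 gamma-like GTPases (middle), and their difference (right), by library, with the mean and SD per genotype; shape and colour give the set. In the middle panel both TS libraries of WT, at 7.20, lie above all Il25 KO and St2 KO libraries, and the TT libraries of WT are lower, at 6.89 and 7.02.

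Genes of the wider pathway were read from 6 further lists. Of 20 interferon genes, 18 had 0 counts in all 16 libraries and Ifnab had 4 counts in all. Ifng, which encodes interferon gamma, had 251 counts in all and 0.397 to 18.6 CPM per library. Receptor transcripts were present in every genotype, with means over 16 libraries of 426.3 CPM for Ifngr1, 188.9 for Ifngr2, 318.2 for Ifnar1 and 118.1 for Ifnar2, and Ifnlr1, of the lambda receptor, was at 0. The kinase gene Jak1 had 590.7 CPM and the feedback inhibitor Socs1 128.5. None of these 6 genes with counts passed in the 4 comparisons.

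Of 95 tested genes on these 6 lists, none passed against WT in any knockout, with 50, 64 and 72 lower in Alox5 KO, Il25 KO and St2 KO and 5, 9 and 6 at an unadjusted p under 0.05. Over all genes 47.9%, 49.7% and 48.2% were lower and 7.17%, 9.3% and 7.49% had such a p, so the counts at that p are near the background. DESeq2 called 1 of them in Alox5 KO (Irf5, named because it was the one gene called) and 0 in each of the other comparisons with WT. The DESeq2 counts over all genes are given in the last section. In Il25 KO against St2 KO 1 of the 95 passed, where 1.24% of all tested genes were called, so this count is near the background. It was Cxcl10, which encodes a chemokine that interferon gamma induces. Cxcl10 had 150.3 ± 25.7 CPM in Il25 KO, 74.1 ± 25.7 in St2 KO, 141.2 ± 36.4 in WT and 190.9 ± 49.8 in Alox5 KO, and was higher in Il25 KO than in St2 KO by 1.07 ± 0.197 (adjusted p = 0.00665). Markers of plasmacytoid dendritic cells, the main makers of type I interferon, were detected for 7 of 8 and summed to 500.8 to 690.2 CPM per library. That sum was mostly Ccr9 (463.6 CPM on average), Tcf4 (91.7) and Ly6d (31.9), while Siglech, the defining marker, had 1 count in all 16 libraries and Cox6a2 was at 0. Ifng was detected in every library, with 48, 56, 72 and 75 counts in WT and in the Alox5, Il25 and St2 knockouts. The pooled ratios of the knockouts to WT were 1.24, 1.44 and 1.36, and their 95% counting intervals (0.826 to 1.86, 0.984 to 2.12 and 0.934 to 2.0) included 1.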

How the data were processed

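RNA-seq counts per gene for 16 libraries were deposited by the authors as whole, unnormalised counts. FastQC 0.11.3, STAR 2.4.2a, Picard 1.134 and HTSeq 0.4.1 with GRCm38 are named in the submitters' processing notes, and Nextera XT in the labels' protocols; strand was not kept. CPM used column totals, and exonic lengths came from GENCODE M21 on GRCm38. For 6 repeated gene identifiers the first entry was kept, and 0.184% of counts were in genes without a symbol. The members, lists and named genes (all 37 members, fixed pathway genes, of which 1 is not reported here, and others only where called) were chosen with earlier results of these data known. Genes passing filterByExpr (11742) were fitted with edgeR 4.0.16 (TMM factors 0.96 to 1.03, robust quasi-likelihood, genotype and sample-code set, 10 residual degrees of freedom) in R 4.3.3, with a threshold of 0.05 on the adjusted p. DESeq2 1.42.0, other scalings, filters and left-out libraries were alternatives. The script was tested on simulated counts, where 41.4% to 59.8% of 2-fold changes and 75% to 82.8% of 4-fold changes were recovered over the 4 comparisons. Of the calls, 3.8% to 13.8% were false, with the highest share in St2 KO against WT. A member that did not pass may therefore still differ. No 2 libraries of a genotype agreed within sampling noise (chi-square of 4.66 to 10.7 per gene).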

Additional observations from a re-analysis of the deposited data

Results flagged for a closer look

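In 8 of 140 groups of 4 libraries, each 1 member in 1 genotype, a library stood apart from the other 3 by Dixon's test at the 95% level. Chance alone sets apart about 1 in 20 groups, and these 8 are 5.71%. The values are in CPM, and the causes were not tested. Igtp was at 305.0 in WT 2 and at 253.7 to 259.9 in the other WT libraries, so the WT mean behind its difference from St2 KO includes a high library. Without WT 2 its call was lost. In WT 3 Irf9 was at 172.7, against 196.6 to 199.4. There were 3 such members in Alox5 KO. Iigp1 was at 75.7 in Alox5 KO 1 (12.9 to 19.0 in the others), Irf7 was at 138.2 in Alox5 KO 1 (86.5 to 93.9), and Ifi35 was at 154.7 in Alox5 KO 3 (182.6 to 183.9). In Il25 KO, Trim30a was at 107.1 in replicate 2 (136.8 to 139.4), Ifitm2 at 15.1 in replicate 1 (28.4 to 30.6), and Ifi44 at 1.22 in replicate 3, with the others at 0.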

How the results depend on the processing

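The members called moved as follows. In Il25 KO against WT, 1 member (Igtp) in place of 0 was called with upper-quartile factors, column totals or DESeq2. In St2 KO against WT, 0 in place of 1 was called in 7 settings: without the set term, with the TS libraries alone, with only the 2 genotypes compared, with column totals, with no low-count filter, with the replicate block beside the set term, and after removal of the 3 libraries with low plasma cell markers. In Il25 KO against St2 KO, 0 in place of 3 was called with the TS libraries alone and 1 in legacy mode. Among any genotypes, 2 in place of 4 were called without the set term and in legacy mode, 0 with TS alone, and 1 without the 3 libraries. The gamma-like medians without the set term were -0.102 in Il25 KO and -0.074 in St2 KO, against -0.293 and -0.227. The causes were not tested, although TS alone uses fewer samples.

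Counts over all genes were 12, 49, 35 and 146 for the Alox5, Il25 and St2 knockouts against WT and for the last 2 against each other. They became 95 (Il25 KO) and 58 (St2 KO) without the set term; 3, 9 and 33 (Alox5 KO, Il25 KO and the knockouts compared) with TS alone; and 22, 9 and 96 with only the 2 genotypes. Legacy mode gave 5 for Alox5 KO, and DESeq2 gave 53, 82, 67 and 246. Without the 3 libraries they were 3, 26, 21 and 90.

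Replicate numbers did not pair the libraries, since 3 of 24 same-numbered pairs had deviations correlated above 0.1 (range -0.079 to 0.197). The replicate block gave 21 genes in place of 12 for Alox5 KO and 0 members in place of 1 for St2 KO, and under it Isg15 (adjusted p = 0.0514) and Igtp (adjusted p = 0.0764) missed the threshold while Irf1 and Ifi27l2a passed.

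Leaving out each library in turn gave 0 to 0 members in Alox5 KO and in Il25 KO, 0 to 1 in St2 KO, 1 to 3 between the knockouts and 2 to 4 among any genotypes. All genes called ran from 6 to 20, 31 to 53, 19 to 45 and 80 to 168. Type I-like medians ran from -0.041 to 0.148, -0.127 to 0.276, -0.513 to -0.232 and 0.327 to 0.567, and gamma-like medians from -0.031 to 0.075, -0.318 to -0.238, -0.339 to -0.177 and 0.011 to 0.07, in the same order. Ifi27l2a was too low to be fitted with only the 2 genotypes. At totals of 2086864 to 3216937 counts, Ifit2 and Ifit3 had too few counts to be tested, and the values of Mx1 and Ifi44 rest on few counts.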
